A study of Mus musculus with 6 samples.

Results

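Mitochondrial solute carriers of the SLC25 family are the transporters of the inner mitochondrial membrane. They were taken here as the protein-coding genes whose symbol is Slc25a followed by a number, with Ucp2 and Ucp3 added, and 42 of the 15176 genes in the deposited table met that rule. GENCODE M21 holds 49 such symbols, and the other 7, Slc25a2, Slc25a18, Slc25a21, Slc25a31, Slc25a41, Slc25a43 and Slc25a54, were not analysed here. The carriers were measured by RNA-seq of the inguinal fat pad (iWAT), which lies under the skin of the groin, in mice on a high-fat diet (HFD). The tested animals were Steap4AKO mice, which lack Steap4 in adipocytes (2 libraries, replicates 2 and 3), and they were set against Steap4f/f mice, which carry the floxed gene (4 libraries, replicates 1, 2, 5 and 6). Which Cre driver was used, and the age and sex of the animals, are not given in the sources used here. Both genotypes thus share the diet and the floxed allele. The study asked how Steap4, a metalloreductase that reduces iron and copper, bears on mitochondria of adipose tissue under this diet.

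Carriers of this family share a fold made of repeated pairs of membrane helices and exchange or import metabolites across a membrane that is otherwise closed to them. ADP/ATP and phosphate carriers feed ATP synthase, the carnitine carrier brings in fatty acyl groups for oxidation, and the citrate carrier exports the carbon from which fat cells make fatty acids. The mitoferrins import iron for heme and iron-sulfur clusters, and the uncoupling proteins of thermogenic fat belong to the same family. Several carriers come as tissue isoforms, of which Slc25a4 and Slc25a12 are the forms of heart and skeletal muscle and Slc25a5 and Slc25a13 those of many other tissues.

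The promoters of these isoform pairs are shown because the balance within each pair differed between libraries. Each line gives the strand-wise sequence from 250 bases before to 50 bases after the start annotated by RefSeq on GRCm38.p6, and capitals mark TATAA and CCAAT, the letters of the TATA box and CCAAT box. The windows lie at chr8:46211013-46211312 (minus strand) for Slc25a4, chrX:36795347-36795646 (plus strand) for Slc25a5, chr2:71367706-71368005 (minus strand) for Slc25a12 and chr6:6217124-6217423 (minus strand) for Slc25a13.
Slc25a4: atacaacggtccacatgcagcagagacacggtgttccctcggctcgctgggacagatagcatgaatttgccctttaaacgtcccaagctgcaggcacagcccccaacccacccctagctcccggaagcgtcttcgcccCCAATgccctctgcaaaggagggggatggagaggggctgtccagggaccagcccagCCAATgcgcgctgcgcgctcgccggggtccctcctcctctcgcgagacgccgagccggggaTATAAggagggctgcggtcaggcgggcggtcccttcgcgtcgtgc
Slc25a5: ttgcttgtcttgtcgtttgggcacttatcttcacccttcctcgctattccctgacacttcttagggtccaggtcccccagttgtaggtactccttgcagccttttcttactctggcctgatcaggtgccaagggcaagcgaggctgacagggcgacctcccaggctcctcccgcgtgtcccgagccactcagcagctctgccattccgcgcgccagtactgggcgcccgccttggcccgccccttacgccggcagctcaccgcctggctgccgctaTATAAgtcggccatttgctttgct
Slc25a12: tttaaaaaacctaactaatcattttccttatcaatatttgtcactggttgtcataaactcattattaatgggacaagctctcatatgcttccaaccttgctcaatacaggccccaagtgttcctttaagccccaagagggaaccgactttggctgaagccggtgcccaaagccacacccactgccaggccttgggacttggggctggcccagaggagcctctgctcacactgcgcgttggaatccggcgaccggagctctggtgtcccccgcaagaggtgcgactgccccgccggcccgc
Slc25a13: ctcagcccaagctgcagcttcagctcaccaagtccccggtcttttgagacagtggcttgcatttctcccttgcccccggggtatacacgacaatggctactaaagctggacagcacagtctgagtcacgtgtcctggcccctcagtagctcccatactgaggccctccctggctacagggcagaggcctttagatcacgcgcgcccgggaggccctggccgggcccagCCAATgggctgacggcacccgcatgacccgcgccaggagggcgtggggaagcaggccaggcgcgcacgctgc
Both ADP/ATP carrier promoters held TATAA, 6 bases past the RefSeq start in Slc25a4 and 27 bases past it in Slc25a5, whereas neither aspartate/glutamate carrier promoter did. In GENCODE M21 these genes start elsewhere, Slc25a4 at 46211284, inside its window, and Slc25a5 at 36795651, past the end of its window. The position of TATAA relative to the start thus depends on the annotation. Among the 33 carriers with a promoter in that table, 9.09% held TATAA on either strand, against 28% of 27025 genes, and 54.5% held CCAAT, against 41.1%. The muscle E-box CAGCTG stood in 6 of the 33 (18.2%, against 18.3% of all genes), Slc25a11, Slc25a24, Slc25a34, Slc25a53, Ucp2 and Ucp3, and in neither ADP/ATP carrier. The motif of NRF1, a regulator of respiratory genes (GCGC and TGCGC with 1 base between), stood in Slc25a3 alone (3.03%, against 5.19%). TCAAGGTCA, bound by estrogen-related receptors, and the direct repeat of AGGTCA with 1 base between, bound by peroxisome proliferator-activated receptors, stood in none of the 33 (against 0.466% and 0.0481%). The motifs were searched on both strands, and a match describes these letters only.

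The libraries differed in ways that bear on the carriers. The estimated depth was 11600000 and 18100000 reads in Steap4AKO and 16000000 to 19300000 reads in Steap4f/f, and Steap4AKO replicate 2 stood apart, where 973 of the 15006 tested genes exceeded each of the other libraries by more than 2-fold, against 20 to 148 such genes elsewhere. All 16 skeletal muscle markers had lower means in Steap4AKO, and their summed normalized value was 2617.3 and 19811.2 in the Steap4AKO libraries and 155108.8, 655501.4, 505437.7 and 841514.2 in Steap4f/f replicates 1, 2, 5 and 6. Steap4f/f replicate 1 therefore held the least muscle signal of its group. The 10 macrophage markers summed to 31243 in Steap4AKO replicate 2, while replicate 3, at 9359.7, lay near the Steap4f/f range of 9873.4 to 11419. The 5 epithelial markers summed to 2546.6 in Steap4AKO replicate 2 and to 44.8 in replicate 3, against 53.5 to 154.7 in Steap4f/f, where Epcam, a surface protein of epithelia, was at 0 in 3 of the 4 libraries. The 10 adipocyte markers summed to 516686.3 and 722120.1 in Steap4AKO and to 654288.4 to 775831.8 in Steap4f/f. They did not share a direction, with 7 lower and 3 higher in mean log2 value. Cfd had 11738.2 and 43889.1 in Steap4AKO and 62712.5 to 161039.5 in Steap4f/f, whereas Lep had 55201.6 and 43433.5 against 8106.1 to 22141.4. The median log2 difference of the 10 was -0.76 in Steap4AKO replicate 2 and 0.15 in replicate 3. Steap4 itself had 8312.6 and 8013.6 in Steap4AKO and 8310 to 17017.9 in Steap4f/f, with overlapping groups (log2 difference -0.35, limma adjusted p = 0.544). This transcript did not separate the genotypes, so that the labels could not be checked by it. In whole tissue, fewer cells of a type and less RNA per cell cannot be told apart, and the p-values below measure the spread between these libraries, which are not stated to come from separate mice.

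Levels of different carriers were compared per kilobase of their longest coding transcript. On that scale 5 carriers, Slc25a3, Slc25a1, Slc25a4, Slc25a5 and Slc25a10, made up 57.3 and 61.2% of the summed level of the 42 in the Steap4AKO libraries and 63.1 to 66.6% in the Steap4f/f libraries. In Steap4f/f their mean levels per kilobase were 5942 ± 701 for the phosphate carrier Slc25a3, 5748 ± 1821 for the citrate carrier Slc25a1, 5387 ± 1781 for Slc25a4, 4776 ± 768 for Slc25a5 and 4485 ± 804 for the dicarboxylate carrier Slc25a10 (SD, n = 4), and these neighbours did not differ beyond their spread. By the Steap4AKO means the order was Slc25a3, Slc25a10, Slc25a1, Slc25a5 and Slc25a4, but neither Steap4AKO library had this order. Slc25a5 (3202.5) lay above Slc25a1 (3150.7) in replicate 2, and Slc25a10 (4874) lay above Slc25a3 (4688.6) in replicate 3. The mean share of Slc25a4 was 6.35% in Steap4AKO against 13.4% in Steap4f/f, while that of Slc25a10 was 14.2% against 11.1%. For the Slc25a10 share the groups overlapped, and its mean level per kilobase was 4231 in Steap4AKO against 4485 in Steap4f/f. Summed over all 42 carriers, the level per kilobase was 27217.2 and 32103 in Steap4AKO and 39867.4 to 41198.7 in Steap4f/f, a ratio of 0.737 with no overlap between the groups.

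**Figure D1:**
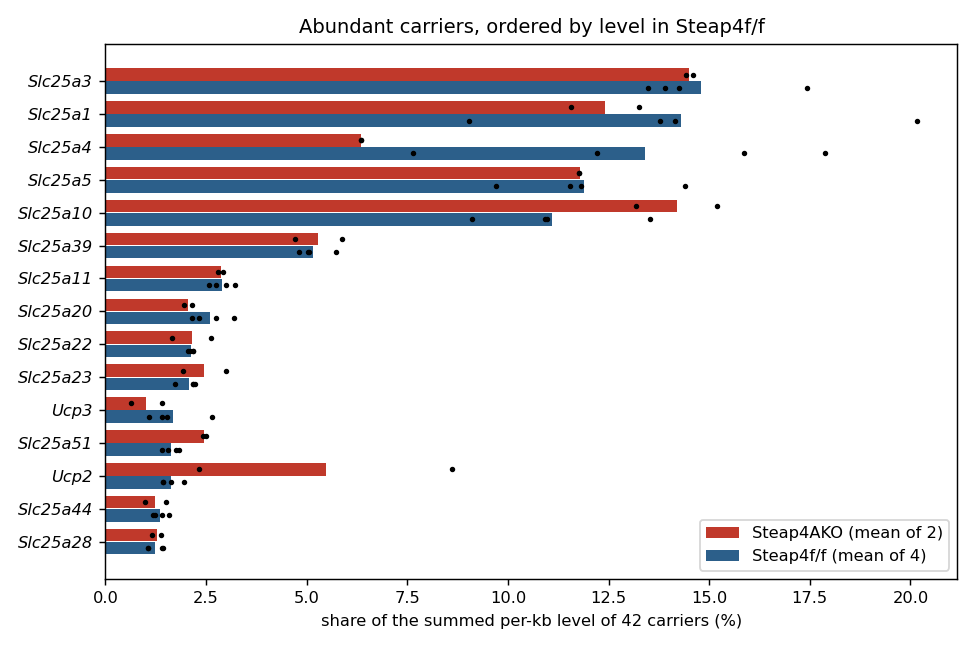
Share of the summed per-kilobase level of 42 carriers (x axis, percent) held by abundant carriers, ordered by their level in Steap4f/f. Bars are group means, red for Steap4AKO (n = 2) and blue for Steap4f/f (n = 4), and black points are libraries. The bar of Slc25a4 stands at 6.35% in Steap4AKO and at 13.4% in Steap4f/f, and the wide gap between the Steap4AKO points of Ucp2 comes from replicate 2.

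No carrier passed an adjusted p of 0.05 in limma in either direction, where 0.433% of the 15006 genes tested were called lower and 0.0400% called higher in Steap4AKO. At an unadjusted p under 0.05, 11 carriers were lower and 3 higher, against 9.66% and 8.45% of all genes. Of the 42 carriers, 30 had a lower and 12 a higher mean log2 value in Steap4AKO. Their median log2 difference (Steap4AKO minus Steap4f/f) was -0.24, against 0.02 over all genes tested. Both Steap4AKO libraries lay below every Steap4f/f library for 11 carriers (26.2%), against 14.4% of all genes. They lay above every Steap4f/f library for 2 carriers (4.76%), against 14.1% of all genes. The median was -0.33 in Steap4AKO replicate 2 and -0.16 in replicate 3, and within Steap4f/f it stayed between -0.02 and 0.06.

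Set against Steap4f/f replicate 1 alone, the control library with the lowest muscle markers, 21 carriers were lower in both Steap4AKO libraries, 8 were higher in both and 13 went different ways (50%, 19% and 31%, against 37.9%, 37.8% and 24.3% of all genes tested). The muscle markers of that 1 library summed to 155108.8, still above the 2617.3 and 19811.2 of the Steap4AKO libraries. Muscle signal thus differed in that comparison too. Single libraries decided several calls. Without Steap4AKO replicate 3, limma called Slc25a22 (log2 difference -0.93, adjusted p = 0.0224), Slc25a44 (-1.02, 0.0441) and Slc25a35 (-1.64, 0.0335) lower and Slc25a24 (1.26, 0.0332) and Ucp2 (1.86, 0.0188) higher, where the lone Steap4AKO library is assumed to vary like the others. That fit sets replicate 2, the library that stood apart, alone against Steap4f/f, and over all genes it called 366 lower and 455 higher, against 65 and 6 with all 6 libraries. Without Steap4f/f replicate 1, Slc25a4 was called lower (log2 difference -1.70, adjusted p = 0.0131, limma). That fit called 218 genes lower and 20 higher over all genes. It leaves out the Steap4f/f library with the lowest muscle markers, so the muscle signal of the groups lay further apart in it. Without Steap4AKO replicate 2, which stood apart, no carrier was called, and 14 lay lower and 7 higher without overlap, against 23.4% and 24.4% of all genes. Without Steap4AKO replicate 3 these counts were 22 and 6, against 28.6% and 31.5% of all genes, and without Steap4f/f replicate 1 they were 15 and 5, against 17.4% and 17.4%.

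**Figure D2:**
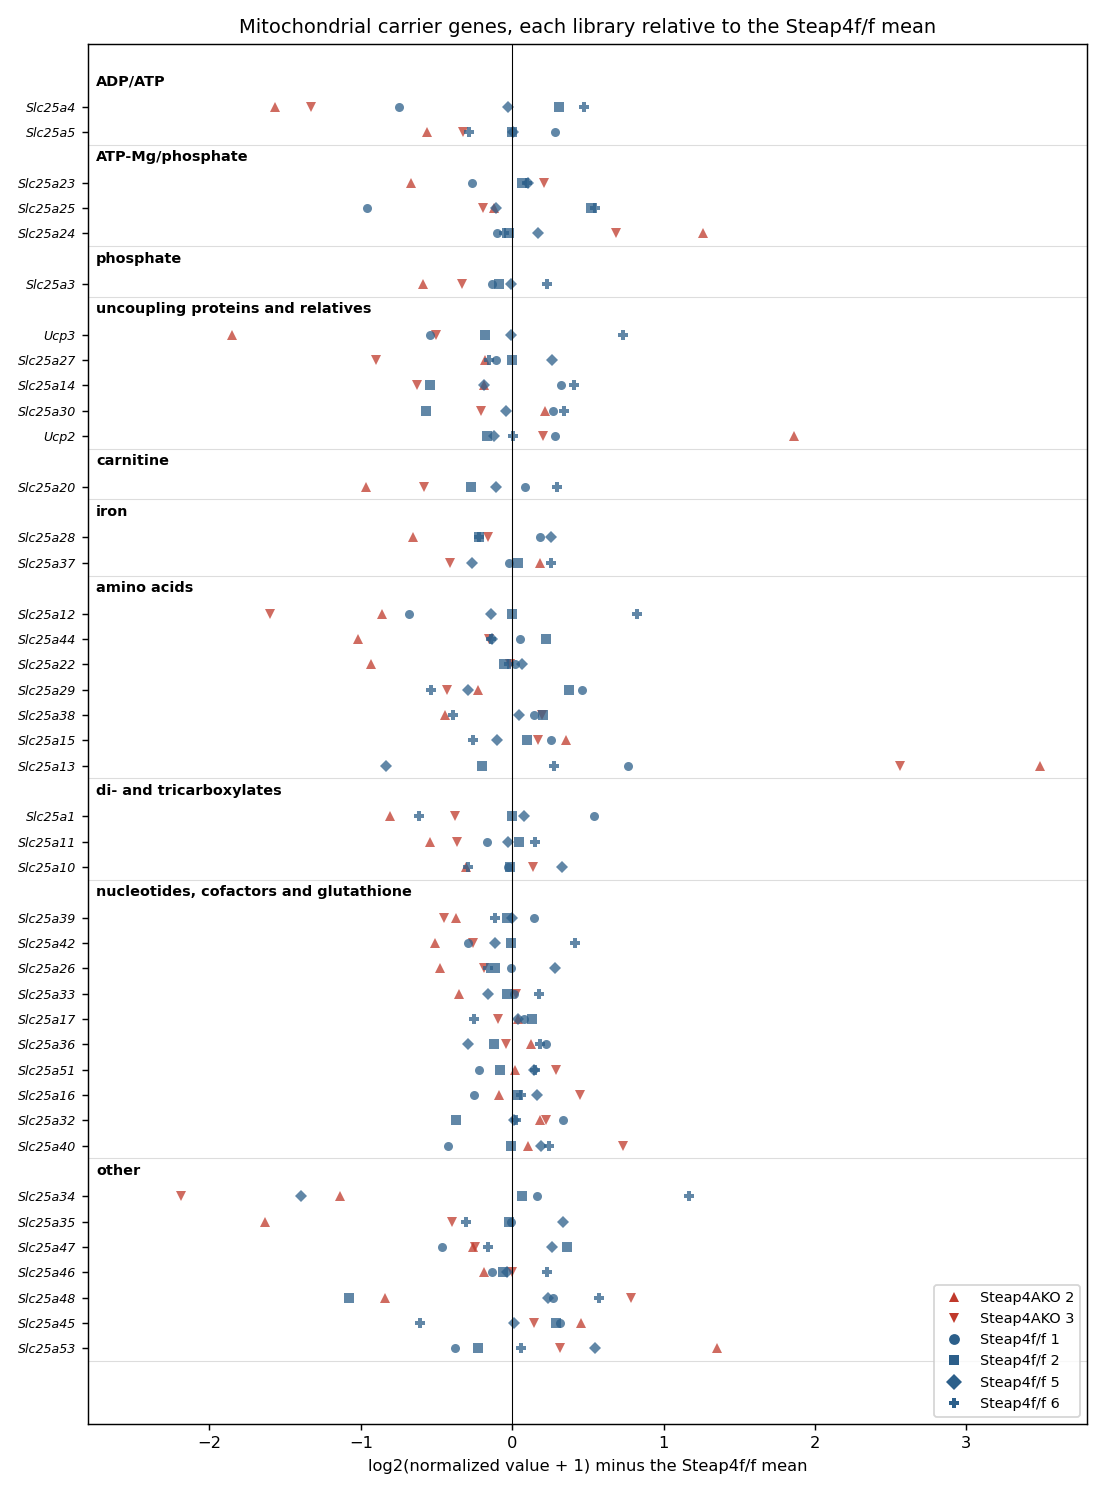
Each of 41 carriers as log2(normalized value + 1) in a library minus the Steap4f/f mean (x axis), grouped by substrate. Red triangles are Steap4AKO replicates 2 and 3 and blue symbols are the 4 Steap4f/f libraries. Slc25a13 and Slc25a24 have both red symbols right of all blue ones, while Slc25a4, Slc25a20, Slc25a3 and Slc25a12 have both left of them.

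Both measured ADP/ATP carriers, which exchange matrix ATP for cytosolic ADP, were lower in Steap4AKO without overlap. Slc25a4, the muscle isoform (chromosome 8, 46206797 to 46211284, GRCm38), had normalized values of 3330.3 and 3922.8 in Steap4AKO and 5874.9, 12220.4, 9676.9 and 13710.8 in Steap4f/f replicates 1, 2, 5 and 6. Its mean was 2.86-fold lower (log2 difference -1.45, SE 0.32, limma adjusted p = 0.0893). Slc25a5, the isoform of most other tissues (chromosome X, 36795651 to 36798807), had 3971.1 and 4680.6 in Steap4AKO and 7130.2, 5867.6, 5891.4 and 4801 in Steap4f/f (1.37-fold lower, log2 difference -0.44, SE 0.18, limma adjusted p = 0.251). The Steap4f/f library with the least Slc25a4, replicate 1, thus had the most Slc25a5, and replicate 6 showed the reverse. Slc25a5 has near-identical copies, Gm5560 (98.3% over 887 bases) and Gm5529 (96.8% over 900 bases), which were not analysed here.

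Per kilobase, Slc25a4 held 35.1% of the summed level of the pair in each Steap4AKO library, and 34.7, 57.3, 51.4 and 64.8% in Steap4f/f replicates 1, 2, 5 and 6. The groups overlapped, and the difference of -17 percentage points had a two-sided exact permutation p of 0.333 over 15 splits, where the smallest possible p is 0.0667. Within Steap4f/f the libraries had the same order by this share as by the summed muscle markers (replicates 1, 5, 2 and 6), and replicate 1 stood at the level of the Steap4AKO libraries. The summed level of the pair per kilobase was 4932.5 and 5812.5 in Steap4AKO and 8802, 11080.2, 9778 and 10994.3 in Steap4f/f, 1.89-fold lower in the mean. Against Steap4f/f replicate 1, Slc25a4 stood at 0.567 and 0.668 of its value and Slc25a5 at 0.557 and 0.656 in the Steap4AKO libraries, so that both isoforms were lower there to a similar degree. With a muscle index as covariate, which correlated with genotype at -0.9, the log2 difference of Slc25a4 was -0.08 (95% interval -1.20 to 1.05) and that of Slc25a5 was -0.76. In that fit the log2 difference was -0.35 for Slc25a20, 0.06 for Slc25a3, -0.50 for Slc25a12, 1.67 for Slc25a13, -0.65 for Ucp2 and 1.05 for Ucp3, and no carrier passed the threshold. Of the 42 carriers, 19 had the other sign in that fit, 13 of them lower and 6 higher without the covariate, among them Slc25a3, Slc25a22, Slc25a23, Slc25a25, Ucp2, Ucp3 and Slc25a15. The log2 difference there was -0.01 for Slc25a11, 0.00 for Slc25a44 and -0.23 for Slc25a35. It was larger in size than without the covariate for Slc25a1 (-1.27), Slc25a29 (-1.34), Slc25a39 (-0.72) and Slc25a40 (1.56), among others. Genotype and muscle signal cannot be told apart in these libraries.

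**Figure D3:**
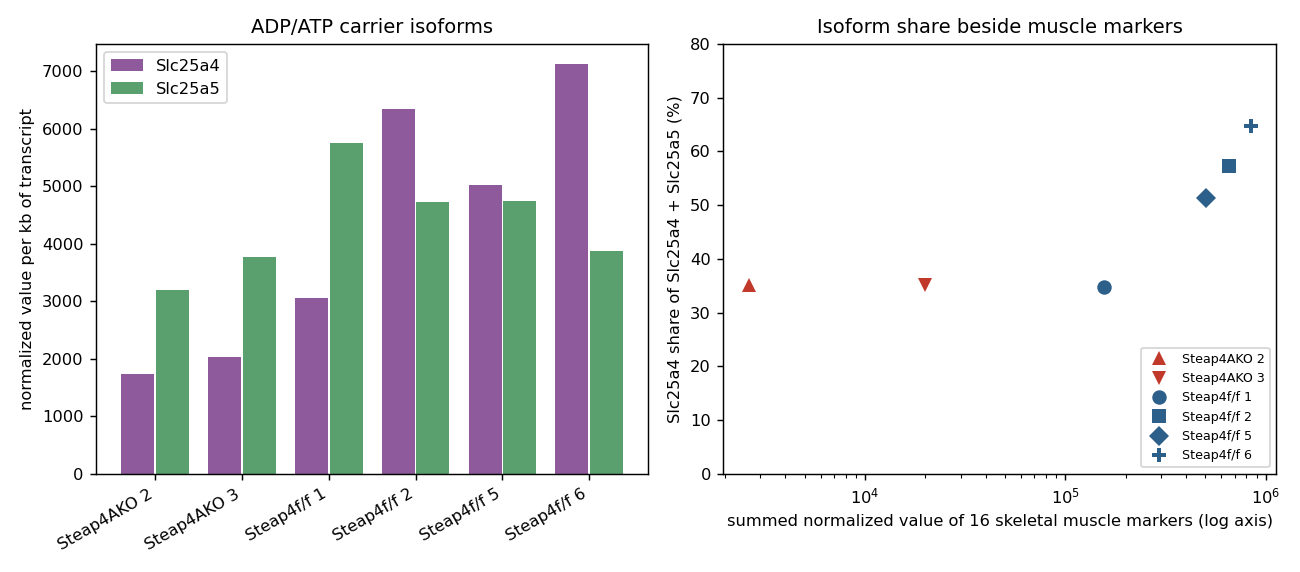
Left, normalized value per kilobase of Slc25a4 and Slc25a5 in each library (bars from 0). Right, the Slc25a4 share of their sum (percent) against the summed value of 16 skeletal muscle markers on a log axis, where the Steap4AKO libraries and Steap4f/f replicate 1 share a level near 35% and the other Steap4f/f libraries lie between 51.4 and 64.8%.

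The phosphate carrier Slc25a3, which supplies ATP synthase with phosphate and is also known to carry copper into the matrix, had 6324.6 and 7558 in Steap4AKO and 8673, 8971.9, 9465.7 and 11200.5 in Steap4f/f. Both Steap4AKO libraries lay below all Steap4f/f libraries (1.38-fold lower, log2 difference -0.46, SE 0.16, limma adjusted p = 0.208). The calcium-regulated ATP-Mg/phosphate carriers, which set the adenine nucleotide pool of the matrix, went different ways. Slc25a24 (chromosome 3, 109123149 to 109168457) had 797.7 and 535.1 in Steap4AKO and 310, 328, 373.8 and 320.6 in Steap4f/f, a 2-fold higher mean with a log2 difference of 0.97 (SE 0.20, limma adjusted p = 0.0804). This was the smallest p of all carriers, and the Steap4f/f libraries lay close together. Against Steap4f/f replicate 1, Slc25a24 was 2.57-fold and 1.73-fold higher in the Steap4AKO libraries.

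Its paralog Slc25a25 had 1083 and 1028.9 in Steap4AKO and 604.4, 1688.7, 1094.7 and 1719.9 in Steap4f/f, with Steap4AKO inside the Steap4f/f range (log2 difference -0.16, 95% interval -1.08 to 0.76). Slc25a23 had means of 2499 ± 1048 (SD, n = 2) in Steap4AKO and 2813 ± 326 (SD, n = 4) in Steap4f/f.

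The carnitine-acylcarnitine carrier Slc25a20, through which long-chain fatty acids enter the matrix for oxidation (chromosome 9, 108662088 to 108684641), had 946.3 and 1229.2 in Steap4AKO and 1953, 1528.8, 1712.5 and 2268.4 in Steap4f/f. Its mean was 1.72-fold lower without overlap (log2 difference -0.77, SE 0.19, limma adjusted p = 0.116), and it stood at 0.485 and 0.629 of Steap4f/f replicate 1. The enzymes around it did not share a direction. Cpt2, which acts on the matrix side, had 1756.4 and 3725.3 in Steap4AKO and 4104.3 to 4799.4 in Steap4f/f. Cpt1b, the muscle isoform of the outer enzyme, had 124.5 and 336.6 in Steap4AKO and 389.6 to 2412.5 in Steap4f/f. Cpt1a, its liver isoform, had 3657.8 and 2398.3 in Steap4AKO and 1202.3 to 1733 in Steap4f/f, a 1.99-fold higher mean without overlap (log2 difference 0.98, SE 0.22, limma adjusted p = 0.0897).

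Iron importers did not separate the genotypes. Mitoferrin 2, Slc25a28, the form of most tissues, had 481.2 and 679.8 in Steap4AKO and 862.9, 650.2, 906.6 and 651.7 in Steap4f/f (log2 difference -0.41, SE 0.22, limma adjusted p = 0.365). Mitoferrin 1, Slc25a37, the form of developing red cells, had 580.1 and 384.6 in Steap4AKO and 502.6, 523.7, 424.4 and 610.4 in Steap4f/f (log2 difference -0.11, 95% interval -0.63 to 0.40). For both genes the groups overlapped. Per kilobase Slc25a37 held 30.7 and 17.2% of the mitoferrin level in Steap4AKO and 14.7 to 25.6% in Steap4f/f (difference 3.77 percentage points, two-sided exact permutation p = 0.6, smallest possible 0.0667). That difference was -2.98 points without Steap4AKO replicate 2 and 10.5 points without replicate 3. The 6 erythroid markers in the table summed to 37583.1 and 25096 in Steap4AKO and 10656.8 to 26177.9 in Steap4f/f, and their part in the Slc25a37 values was not tested. A stretch of 382 bases of Slc25a37 is identical in Gm16867, which had 32.9 to 285.6 across the 6 libraries, so that reads of that stretch cannot be assigned.

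Among the 7 measured amino acid carriers, 5 had lower and 2 higher means, and the aspartate/glutamate carriers of the malate-aspartate shuttle had opposite differences. Slc25a12 (aralar, chromosome 2, 71271063 to 71367749), the isoform of muscle and brain, had 460 and 276 in Steap4AKO and 522.3, 835.7, 759.7 and 1480.2 in Steap4f/f, a 2.44-fold lower mean without overlap (log2 difference -1.23, SE 0.39, limma adjusted p = 0.182). Slc25a13 (citrin, chromosome 6, 6041218 to 6217173), the main isoform of liver, had 104.7 and 54.8 in Steap4AKO and 15, 7.2, 4.3 and 10.4 in Steap4f/f, an 8.63-fold higher mean without overlap (log2 difference 3.02, SE 0.67, limma adjusted p = 0.0897). Among the carriers this was the largest difference on the log2 scale, on the gene with the lowest level per kilobase in Steap4f/f. Its Steap4f/f mean of 9.24 lay under the minimum mean of 10, so that it entered the test through its Steap4AKO values, and it was not tested at a minimum of 50. Per kilobase Slc25a13 held 31.7 and 28.8% of the level of the pair in Steap4AKO, and 5.53, 1.73, 1.13 and 1.41% in Steap4f/f. These shares, chosen after the values were seen, are given without a test.

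Slc25a13 was 6.98-fold above Steap4f/f replicate 1 in Steap4AKO replicate 2, where the epithelial markers summed to 2546.6, and 3.65-fold above it in replicate 3, where they summed to 44.8. In replicate 3 Epcam was at 0, and Cdh1, another epithelial marker, had 32.2, within the Steap4f/f range of 25.1 to 67.3. The part of epithelial cells in the Slc25a13 values was not tested. The mean of Got1, the cytosolic aspartate aminotransferase of the shuttle, was 2.87-fold lower in Steap4AKO, with 300.6 and 149.4 against 321 to 1272.4 in Steap4f/f. Mdh2, its matrix malate dehydrogenase, had 4241.5 and 5668.6 in Steap4AKO and 8024.9 to 9019.6 in Steap4f/f.

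Slc25a44, which imports branched-chain amino acids in brown fat, had 949.5 and 1731.1 in Steap4AKO and 1994.7, 2245.9, 1752.2 and 1746.9 in Steap4f/f (log2 difference -0.59, SE 0.24, limma adjusted p = 0.255). The groups did not overlap, but replicate 3 lay just below the lowest Steap4f/f library, and the log2 difference was -1.02 in replicate 2 and -0.15 in replicate 3. The glutamate carrier Slc25a22 showed the same split, with 1260.3 in Steap4AKO replicate 2, 2375.7 in replicate 3 and 2311.2 to 2510.4 in Steap4f/f. The ornithine carrier Slc25a15 had 299.1 and 262.1 in Steap4AKO and 279.5, 250.2, 217.8 and 194.6 in Steap4f/f (log2 difference 0.26, SE 0.22, limma adjusted p = 0.554). Means of Slc25a29, a carrier of basic amino acids, and Slc25a38, which brings in glycine for heme synthesis, had log2 differences of -0.33 and -0.12.

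Of the di- and tricarboxylate carriers, Slc25a11, the oxoglutarate/malate carrier of the malate-aspartate shuttle, had 1358.3 and 1537.7 in Steap4AKO and 1762.9, 2048.3, 1945 and 2201.5 in Steap4f/f, a 1.37-fold lower mean without overlap (log2 difference -0.46, SE 0.14, limma adjusted p = 0.173). Slc25a1, the citrate exporter, had 5249.1 and 7091.8 in Steap4AKO and 13405, 9186.6, 9712.6 and 5999.4 in Steap4f/f (log2 difference -0.59, SE 0.30, limma adjusted p = 0.339). Its Steap4f/f values spread widely, and Steap4f/f replicate 6 lay below Steap4AKO replicate 3. Slc25a10, which exchanges malate or succinate for phosphate, had 7259.5 and 9860 in Steap4AKO and 8812.8, 8875.3, 11266.9 and 7339.2 in Steap4f/f, with a log2 difference of -0.08 (95% interval -0.57 to 0.40).

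The uncoupling proteins Ucp2 (chromosome 7, 100493337 to 100502020) and Ucp3 (chromosome 7, 100472990 to 100486432) are neighbours on the plus strand and had opposite differences, which rested mainly on Steap4AKO replicate 2. Ucp2, known from macrophages and other immune cells, had 9357.5 and 2961.9 in Steap4AKO and 3126.3, 2288, 2369.8 and 2576.8 in Steap4f/f (log2 difference 1.03, SE 0.40, limma adjusted p = 0.234). Replicate 3 lay within the Steap4f/f range, and replicate 2, with its high Ucp2, was also the library whose macrophage markers averaged 358% of their Steap4f/f means. The part of these cells in the Ucp2 value was not tested.

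Ucp3, known from skeletal muscle and brown fat, had 430.6 and 1097.5 in Steap4AKO and 1066, 1370.1, 1549.5 and 2584.7 in Steap4f/f (log2 difference -1.18, SE 0.43, limma adjusted p = 0.218). Within Steap4f/f it was lowest in replicate 1 and highest in replicate 6, as the summed muscle markers were, but replicates 2 and 5 had the reverse order. Steap4AKO replicate 3 stood at 1.03 of Steap4f/f replicate 1. The part of muscle cells in the Ucp3 values was not tested. Ucp1, through which brown and beige fat make heat, had 17.2 and 26.9 in Steap4AKO and 58, 4, 890.8 and 2068.9 in Steap4f/f, so that the groups overlapped. All 7 thermogenic adipocyte markers, Ucp1 among them, had lower means in Steap4AKO (median log2 difference -1.98), none past the threshold. They summed to 299.9 and 1099.5 in Steap4AKO and 2303.4, 1882.4, 4011.4 and 5375.6 in Steap4f/f. Dio2, at 3 to 25.7, and Elovl3, at 0 to 48.7, were low in all 6 libraries. The part of muscle cells in the 7 markers, and the part of these markers in the carrier values, were not tested. Of the relatives of the uncoupling proteins, Slc25a27 was lower without overlap (47.8 and 28.7 in Steap4AKO, 48.7 to 65.4 in Steap4f/f), and Slc25a14 and Slc25a30 overlapped.

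**Figure D4:**
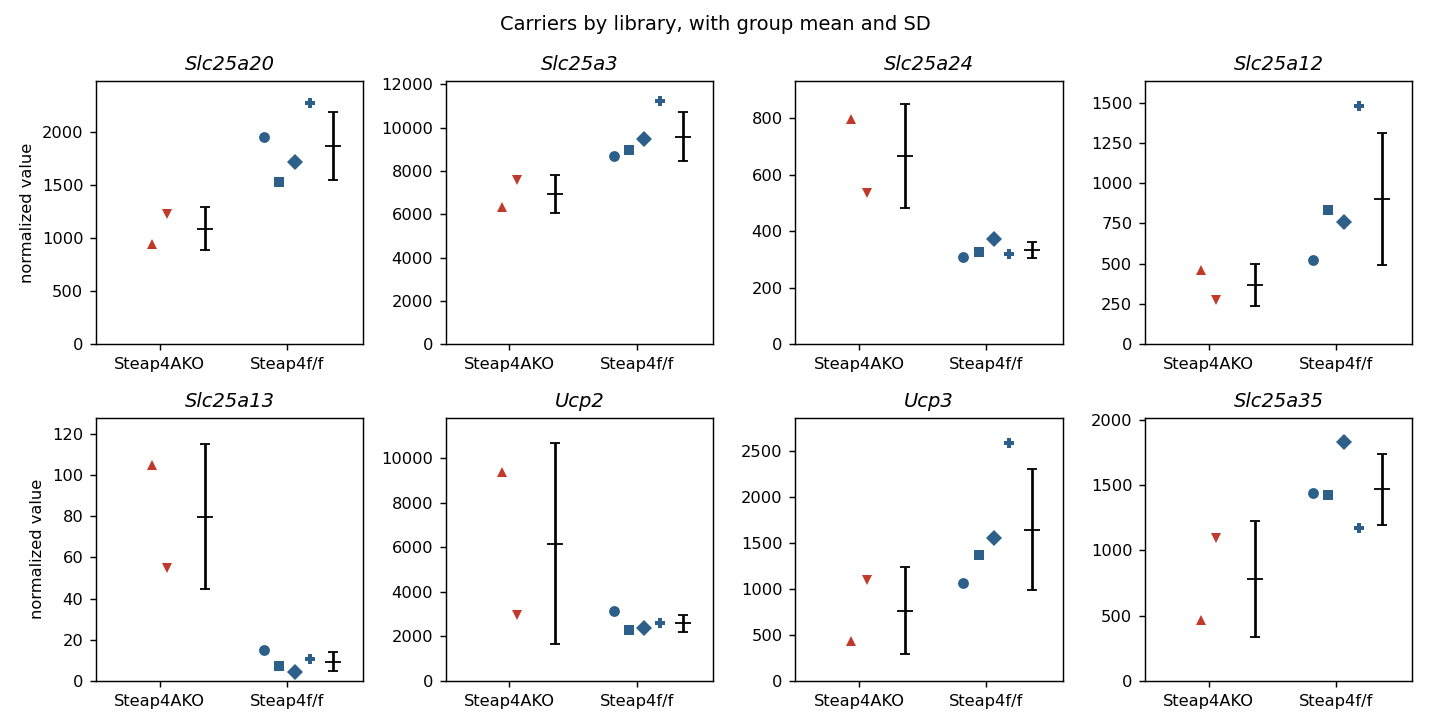
Normalized value of 8 carriers in each library (symbols as in the plot of all carriers), with the group mean and SD in black (n = 2 Steap4AKO, n = 4 Steap4f/f) and axes from 0. Slc25a20 and Slc25a3 are lower and Slc25a24 and Slc25a13 higher in both Steap4AKO libraries, whereas Ucp2 is high in Steap4AKO replicate 2 only, at 9357.5.

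Carriers of nucleotides, cofactors and glutathione had a median log2 difference of -0.03, and 2 of 11 (18.2%) were lower without overlap, near the 14.4% of all genes. Slc25a39, which imports glutathione, had 2694 and 2549.8 in Steap4AKO and 3858, 3403.5, 3486.1 and 3225.7 in Steap4f/f, a 1.33-fold lower mean (log2 difference -0.41, SE 0.13, limma adjusted p = 0.177). Its paralog Slc25a40 had 187.6 and 290.2 in Steap4AKO and 129.6, 173.4, 199.1 and 206.3 in Steap4f/f (log2 difference 0.42, SE 0.29, limma adjusted p = 0.474), with overlapping groups. Slc25a26, the S-adenosylmethionine carrier, was the other of these, with 212.2 and 259.6 in Steap4AKO and 263.8 to 360 in Steap4f/f.

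The coenzyme A carriers Slc25a42 and Slc25a16 had log2 differences of -0.39 and 0.18, the NAD carrier Slc25a51 0.15, the peroxisomal carrier Slc25a17 -0.03, the folate and FAD carrier Slc25a32 0.20, and the pyrimidine nucleotide carriers Slc25a33 and Slc25a36 -0.16 and 0.04. All of these had overlapping groups.

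Among carriers whose substrate is less settled, Slc25a35 (chromosome 11, 68968131 to 68974365) had 465.3 and 1096.6 in Steap4AKO and 1440.3, 1425.9, 1825.6 and 1170.4 in Steap4f/f (log2 difference -1.02, SE 0.33, limma adjusted p = 0.182). The groups did not overlap, but the log2 difference was -1.64 in replicate 2 and -0.40 in replicate 3. Exons of Rangrf on the other strand cover 31.3% of its exon bases, and since strandedness is not given, reads there cannot be told apart. For Slc25a10, Slc25a11, Slc25a25, Slc25a26, Slc25a46 and Ucp2 such overlaps cover 3 to 8.92% of the exon bases. Slc25a53, a member with a low level, had 141.8 and 68.3 in Steap4AKO and 41.9, 46.6, 80.5 and 57.2 in Steap4f/f (log2 difference 0.83, SE 0.44, limma adjusted p = 0.354). Slc25a34 had a 3.70-fold lower mean with overlapping groups (25.7 and 11.9 in Steap4AKO, 21.4 to 131.2 in Steap4f/f). Log2 differences of Slc25a45, Slc25a46, a protein of the outer membrane, Slc25a47 and Slc25a48 were 0.30, -0.09, -0.25 and -0.03, with overlapping groups.

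Most partners of the carriers, the porins, enzymes and other proteins that work beside them, had lower values in Steap4AKO. Of 17 listed partners, 14 had a lower and 3 a higher mean log2 value in Steap4AKO. Their median log2 difference was -0.63. Without overlap, 13 (76.5%) were lower, against 14.4% of all genes, and 1 (Cpt1a, 5.88%) was higher, against 14.1%. The list was chosen with earlier results of these data known, so these shares are a description. It holds the muscle isoform Cpt1b, and the part of muscle cells in the partner values was not tested. Cytochrome c, Cycs, the electron carrier of the intermembrane space, was the 1 partner past the threshold, at 2778.8 and 2804.8 in Steap4AKO and 4878 to 6012.3 in Steap4f/f (2.01-fold lower, limma adjusted p = 0.0466). That call was lost without Steap4AKO replicate 2 (limma adjusted p = 0.199) and with Steap4f/f replicate 2, 5 or 6 left out (0.176, 0.154 and 0.123), at log2 differences of -1.07 to -0.98. The pyruvate carrier subunits, which belong to another protein family, had 1.61-fold (Mpc1) and 1.56-fold (Mpc2) lower means. The porins of the outer membrane, Vdac1, Vdac2 and Vdac3, had 1.65-fold, 1.18-fold and 1.52-fold lower means, all without overlap. Mtch2, an outer membrane relative of the carriers, had 2109 and 2769.4 in Steap4AKO and 3195.9 to 4803.3 in Steap4f/f, while Mtch1 had 3738 and 3768.7 in Steap4AKO and 3121.8 to 4037.9 in Steap4f/f. The difference between partners and carriers was not tested.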

How the data were processed

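The deposited table held 1 column per library. Per its name, the authors deposited a signal that is each gene's count after DESeq2 normalization. The submitters' processing notes list DESeq2 1.12.4, R 4.2.0, RSEM 1.3.3 and STAR 2.7.0e beside the builds mm10 and GRCm38, without roles or order. Whole reads were not recovered (34.5 to 59.7% of low values lay within 0.1 of a whole read), so count models were not applied and library depth is estimated. Symbols and transcript lengths came from GENCODE M21 (GRCm38), which matched 15133 genes, and copies were found with BLAST 2.17.0 at 95% identity or more over at least 150 bases.

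All 42 carriers passed a mean value of at least 10. The counts include 1 carrier that is not reported here by name. Differences were tested with limma 3.58.1 in R 4.3.3 on log2(value + 1), with a variance trend and 2 groups, over 15006 genes with that mean. The Benjamini-Hochberg adjustment ran over these genes (threshold 0.05, two-sided), and this scale understates changes of low genes. The fit was tested on simulated data. Carriers and lists were chosen with earlier results of these data known. Named with values in every library were the 6 carriers with the smallest p in each direction and a set list of main carriers. Alternatives were pseudocounts, filters, scalings, weights, variance priors, a muscle covariate, a threshold, transcript lengths and each library left out.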

Additional observations from a re-analysis of the deposited data

Results flagged for a closer look

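In Steap4f/f, the ATP-Mg/phosphate carrier Slc25a23 had 2328.2 in replicate 1, while the other 3 libraries lay between 2924 and 3007.9. The gap made up 0.877 of the range of the group, above the limit of 0.829 for 4 samples. This was 1 of 42 carriers examined, and chance puts about 1 in 20 groups past that limit. Steap4AKO replicate 2, at 1757.6, was lower still, and replicate 3, at 3240.4, lay above all Steap4f/f libraries.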

How the results depend on the processing

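No paired analysis was possible because the genotypes share only replicate number 2. No carrier passed the threshold under other pseudocounts, filters, scalings, array weights, a robust variance prior or the muscle covariate. At an adjusted p of 0.1 there were 1 lower (Slc25a4) and 2 higher (Slc25a24 and Slc25a13). Of these, Slc25a13 entered the test through its Steap4AKO values, since its Steap4f/f mean of 9.24 lay under the minimum mean of 10. Leaving out 1 library gave 0 to 3 carriers called lower and 0 to 2 called higher, 12 to 22 lower and 2 to 7 higher without overlap, and a median log2 difference of -0.33 to -0.16. That median was -0.30 under quantile normalization and -0.05 with the muscle covariate, and 1 carrier was higher without overlap among those with a mean of at least 50. Of all genes tested, 16.7 to 28.6% lay lower and 16.8 to 31.5% higher without overlap when 1 library was left out. With all 6 libraries these shares were 14.4% and 14.1%, so that the carrier counts rose along with those of all genes. The covariate correlated with genotype at -0.9 over 6 libraries, given as a description, and the median SE of the carriers was 0.49 with it and 0.24 without. With it the log2 difference was 0.55 for Slc25a24. Over all genes, 1 was lower and 0 higher at pseudocount 0.5, a mean of at least 50, the robust prior or the covariate, 105 and 18 at pseudocount 5, 115 lower with array weights, 313 and 97 at an adjusted p of 0.1, and 1 to 366 lower and 0 to 455 higher with 1 library left out, against 65 and 6. Cycs had limma adjusted p-values of 0.0503, 0.0512 and 0.0665 at pseudocount 0.5, a mean of at least 50 and the robust prior. With the covariate its limma adjusted p was 0.559, at a log2 difference of -1.07, against -1 without the covariate. The cause was not tested. The difference in the Slc25a4 share ranged from -22.8 to -12.7 points and that in the Slc25a37 share from -2.98 to 10.5 points with 1 library left out. Only 2 Steap4AKO libraries enter each comparison.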
